A study of Mus musculus with 12 samples.

Results

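Transcripts of 8 genes of the organiser and axial mesendoderm were followed in mouse cells, out of 24736 genes in the table. The members, Gsc, Lhx1, Foxa2, Hhex, Noto, Shh, Chrd and Nog, were given as a list of gene names, drawn up with earlier results of these data known, and all 8 were found in the table. Polyadenylated RNA was sequenced from 12 cultures that had left the embryonic stem cell state 72 h earlier, with 3 replicates in each of 4 groups. EpiLC (epiblast-like cells) were wild type, as were CEpiLC (caudal epiblast-like cells), which also received CHIR99021, a GSK3 inhibitor that activates WNT signalling, from day 2 to day 3. SOX2-OFF and SOX2-ON received CHIR99021 over the same day and came from the SOX2 TetON line, whose genotype is given as Sox2-/-, with doxycycline withdrawn from SOX2-OFF and kept at 1 µg/ml in SOX2-ON. All 12 cultures were given basic FGF at 10 ng/ml and LGK974, which blocks secretion of WNT ligands, at 5 µM. The wild-type cells were the parental XY line HM1 TetON, which carries the doxycycline-responsive activator rtTA at Rosa26. In the SOX2 TetON line a Sox2 cDNA that answers to doxycycline sits in the Hprt locus and the endogenous gene was disrupted by CRISPR, after which resistant clones were picked. SOX2-ON and SOX2-OFF thus shared a line and differed in SOX2 and in doxycycline itself. Between them and the wild-type groups the line and the state of Sox2 cannot be told apart. Doxycycline, which is listed for neither wild-type group, is a further difference for SOX2-ON. Against EpiLC, CHIR99021 differed as well for both SOX2-OFF and SOX2-ON.

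The organiser forms at the anterior end of the primitive streak, and its derivatives are the node, the prechordal plate, the notochord and the definitive endoderm. Nodal and WNT signals together induce it, and the highest Nodal activity is known to favour its most anterior derivatives. Organiser cells secrete BMP antagonists, which shield the overlying epiblast from BMP, and the notochord later secretes SHH, which patterns the neural tube above it. Several of these genes also have a life in the extraembryonic endoderm: Foxa2, Lhx1, Gsc and Hhex are known from the anterior visceral endoderm as well as from the streak.

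Sox2 itself, the manipulated gene, was read at 171, 119 and 121 TPM (a level scaled for transcript length and library size) in the EpiLC libraries and at 13.7, 9.66 and 7.78 TPM in CEpiLC. It was read at 21.2, 16.0 and 12.3 TPM in SOX2-OFF and at 215, 173 and 174 TPM in SOX2-ON, so that no SOX2-ON library overlapped with either of the other groups given CHIR99021. The transcript was not lower in SOX2-OFF than in CEpiLC but higher (log2 0.65 ± 0.24 SE, adjusted p = 0.0367), and reads of the disrupted gene and of the cDNA cannot be told apart. Markers of EpiLC and CEpiLC followed the labels, in that Otx2 fell from a mean of 165 to 2.62 TPM with CHIR99021 in wild-type cells while T rose from 0.55 to 711 TPM. Libraries held 10408252 to 27337740 counts.

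The fold changes below are log2 values from edgeR's quasi-likelihood test, fitted to rounded expected counts of 14196 genes, and the threshold for a call was an adjusted p of 0.05. Of the members 7 were tested, since Shh had too few counts. Across all genes tested the groups differed widely. Between CEpiLC and EpiLC 42.2% of the genes were called, which is the background against which the members are to be read, and 5 of the 7 tested members were called higher against 22.1% of all genes called higher. The other two also had positive log2 values, and 20.1% of all genes were called lower. Of SOX2-OFF against CEpiLC, where 48.5% of all genes were called, 1 member was called higher (23.6% of all genes) and 2 lower (24.9%). Of SOX2-ON against CEpiLC, with 56.5% called, 1 was higher (27.9%) and 5 were lower (28.6%). SOX2-ON against SOX2-OFF, with 28.8% called, had 1 higher (14.8%) and 4 lower (14.1%). The median log2 fold change of the 7 tested members was 2.17 in CEpiLC against EpiLC, 0.29 in SOX2-OFF against CEpiLC and -3.13 in SOX2-ON against CEpiLC, where the median of all genes was 0.012, -0.013 and -0.012. In SOX2-ON against SOX2-OFF it was -3.07 over the 6 members above the floor of 3 counts per library (all genes -0.008). With Noto included the median was Noto's own fitted value of -1.40, from 2 groups both at the floor. Ranges of TPM did not overlap between the groups for 6, 4, 6 and 5 of the 7 tested members in these 4 comparisons, in the order above, where 52.1, 55.2, 59.5 and 43.5% of all genes did not overlap. These comparisons share libraries and are not independent of each other. In bulk RNA, fewer cells that express a gene and less RNA per cell cannot be told apart.

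**Figure D1:**
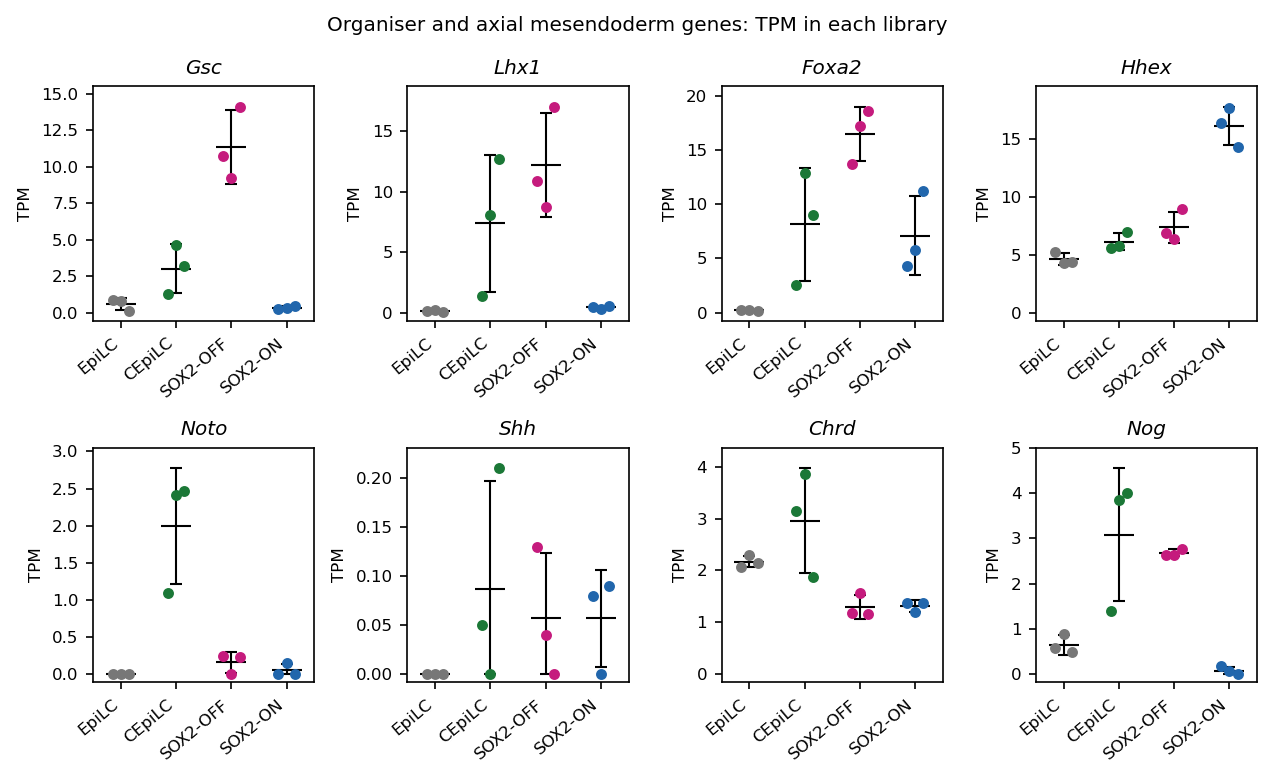
TPM of each member gene (vertical axes, one scale per gene) in the 12 libraries, by group. Points are libraries, horizontal bars are means of 3 and vertical bars are 1 SD, cut at 0. Gsc, Lhx1 and Foxa2 have their highest means in SOX2-OFF (11.4, 12.2 and 16.5 TPM), Hhex has its highest in SOX2-ON (16.1 TPM), Noto rises above 1 TPM in CEpiLC alone, and Shh stays at or under 0.21 TPM.

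Among the transcription factors, Gsc and Lhx1 took a like course. Gsc encodes the homeodomain repressor goosecoid, a classical mark of the organiser and prechordal plate (chromosome 12, 104471209 to 104473236 of the mm10 assembly, GRCm38). Lhx1 encodes a LIM homeodomain factor required for the node and head organiser (chromosome 11, 84517975 to 84525534). Both rose with CHIR99021 in wild-type cells, had their highest means in SOX2-OFF and were far lower in SOX2-ON than in CEpiLC or SOX2-OFF. Noto, the homeobox gene of the node and notochord (chromosome 6, 85423886 to 85428877), took another course and was read mainly in CEpiLC. The 250 bases before the RefSeq start of these 3 genes are shown because Gsc and Noto changed in opposite directions between CEpiLC and SOX2-OFF, with Lhx1, which was not called there, beside them. They lie at chr12:104473237-104473486 (minus strand), chr11:84525535-84525784 (minus strand) and chr6:85423636-85423885 (plus strand) and are printed 5′ to 3′ along the gene.
Gsc: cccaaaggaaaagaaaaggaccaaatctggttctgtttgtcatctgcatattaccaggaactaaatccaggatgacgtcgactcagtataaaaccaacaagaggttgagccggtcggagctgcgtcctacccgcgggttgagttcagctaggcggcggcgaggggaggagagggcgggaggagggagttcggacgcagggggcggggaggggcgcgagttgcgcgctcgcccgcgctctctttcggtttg
Lhx1: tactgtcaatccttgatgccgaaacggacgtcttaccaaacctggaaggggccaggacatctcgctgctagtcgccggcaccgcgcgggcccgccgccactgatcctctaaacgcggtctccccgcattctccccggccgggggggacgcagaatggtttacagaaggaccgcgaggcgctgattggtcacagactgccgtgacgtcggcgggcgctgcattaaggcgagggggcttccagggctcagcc
Noto: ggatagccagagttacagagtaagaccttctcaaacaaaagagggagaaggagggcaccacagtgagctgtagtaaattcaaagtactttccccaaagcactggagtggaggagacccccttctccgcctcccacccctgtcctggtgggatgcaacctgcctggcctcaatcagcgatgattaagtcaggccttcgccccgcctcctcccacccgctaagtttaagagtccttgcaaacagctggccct
No letter is in capitals because none of the motifs searched was found. The search covered both strands for CTTTGAT (TCF/LEF), CATTGTT (SOX), TAATCC (bicoid-type homeodomain, such as goosecoid), TCACACC (T-box site) and TGTTTAC (forkhead). RefSeq windows existed for 6 of the 8 members, with 3 windows for Foxa2, and 0 of these 8 windows held any of the motifs, while 3.21, 3.29, 6.25, 3.33 and 3.17% of all 32851 windows of 250 bases did. That says only that these letters are not in these windows. GC content was 59.2% for the Gsc window, 64.8% for Lhx1 and 54.8% for Noto, against 78% for Chrd and 76% for Hhex.

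Gsc was read at 0.83, 0.79 and 0.14 TPM in EpiLC, at 1.24, 4.63 and 3.20 TPM in CEpiLC, at 10.7, 9.22 and 14.1 TPM in SOX2-OFF and at 0.21, 0.33 and 0.45 TPM in SOX2-ON. All CEpiLC libraries lay above all EpiLC libraries, and all SOX2-OFF libraries above all CEpiLC libraries, while SOX2-ON overlapped with EpiLC. The rise with CHIR99021 in wild-type cells was 4.51-fold (log2 2.17 ± 0.54 SE, adjusted p = 0.00597), and SOX2-OFF stood a further 3.95-fold above CEpiLC (log2 1.98 ± 0.40 SE, adjusted p = 0.00116). Gsc was the only member called higher in SOX2-OFF than in CEpiLC. SOX2-ON was 34.5-fold below SOX2-OFF (log2 -5.11 ± 0.55 SE, adjusted p = 1.84e-05) and 8.73-fold below CEpiLC (adjusted p = 0.000741). The low values rest on few reads: SOX2-ON held 9 Gsc counts in its 3 libraries together and EpiLC 18, against 267 in SOX2-OFF. SOX2-ON against EpiLC was not called (log2 -0.95 ± 0.77 SE, adjusted p = 0.306).

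Lhx1 was read at 0.14, 0.19 and 0.05 TPM in EpiLC and at 1.38, 8.07 and 12.7 TPM in CEpiLC. SOX2-OFF gave 10.9, 8.72 and 17.0 TPM and SOX2-ON 0.43, 0.30 and 0.56 TPM. CEpiLC and SOX2-OFF overlapped, and SOX2-ON lay below every library of both and above every EpiLC library. SOX2-ON against EpiLC was not called (log2 1.59 ± 1.26 SE, adjusted p = 0.294), with summed counts 3.08 times higher (95% counting interval 1.47 to 7.05). Lhx1 rose with CHIR99021 in wild-type cells (log2 5.66 ± 0.86 SE, adjusted p = 0.000192), from 10 counts in all in EpiLC to 448 in CEpiLC, and without CEpiLC replicate 3 the log2 value was 5.02. In SOX2-ON it was 29-fold below SOX2-OFF (log2 -4.86 ± 0.70 SE, adjusted p = 0.000208) and 16.7-fold below CEpiLC (log2 -4.06 ± 0.72 SE, adjusted p = 0.00033, log2 -3.43 without CEpiLC replicate 3). SOX2-OFF against CEpiLC was not called (log2 0.80 ± 0.52 SE, adjusted p = 0.222), although it was called when CEpiLC replicate 3 was left out (log2 1.43, adjusted p = 0.0338). Lhx1 lies on chromosome 11, whose genes were lower in the SOX2 TetON line by their median, at -0.52 log2 against the wild-type libraries over 678 genes. With the median shift of each chromosome taken out, SOX2-OFF against CEpiLC was 1.31 for Lhx1 (adjusted p = 0.0588) and SOX2-ON against CEpiLC -3.53 (adjusted p = 0.00132).

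Noto was listed at 0 in all 3 EpiLC libraries and at 1.09, 2.42 and 2.47 TPM in CEpiLC, from 23, 34 and 20 counts. SOX2-OFF held 3, 0 and 2 counts (0.24, 0 and 0.23 TPM) and SOX2-ON 0, 2 and 0 counts (0, 0.15 and 0 TPM). Noto was therefore above the floor of 3 counts per library in CEpiLC alone. It was at least 8.68-fold higher in CEpiLC than in EpiLC, with EpiLC put at the floor in each library (adjusted p = 0.000345). Here and beside the ratios of Noto that follow, the adjusted p is that of edgeR's fit and does not test the bound or the ratio. The summed counts, scaled for library size, were 12.3 times higher in CEpiLC than in SOX2-OFF (95% counting interval 5.07 to 39.1, adjusted p = 0.0018) and 36.2 times higher than in SOX2-ON (9.69 to 304, adjusted p = 0.000402). Single libraries weigh on such low counts, since the fitted log2 value of SOX2-OFF against CEpiLC (-3.63 ± 0.74 SE) was -4.23 without SOX2-OFF replicate 1 and -2.94 without replicate 2. That of SOX2-ON against CEpiLC (-5.03) rested on the 2 counts of SOX2-ON replicate 2. Without that library SOX2-ON held 0 counts, and no value is given. Noto thus fell in SOX2-OFF where Gsc rose. Genes of chromosome 6 were higher in the SOX2 TetON line by a median of 0.58 log2 over 377 genes, opposite in sign to the fall of Noto, which was -4.18 in SOX2-OFF and -5.56 in SOX2-ON with that shift taken out.

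Foxa2 encodes a forkhead factor needed for node, notochord and endoderm (chromosome 2, 148042877 to 148046969). It was read at 0.24, 0.21 and 0.14 TPM in EpiLC, at 2.53, 12.9 and 8.96 TPM in CEpiLC, at 13.7, 17.2 and 18.6 TPM in SOX2-OFF and at 4.29, 5.76 and 11.2 TPM in SOX2-ON. All SOX2-OFF libraries lay above all CEpiLC libraries and all SOX2-ON libraries, and SOX2-ON overlapped with CEpiLC. Foxa2 rose with CHIR99021 in wild-type cells by a log2 value of 5.24 ± 0.74 SE (adjusted p = 0.0001). Unlike Gsc and Lhx1, Foxa2 was 32.7-fold above EpiLC in SOX2-ON too (log2 5.03 ± 0.74 SE, adjusted p = 6.57e-05), and it did not pass the test between SOX2-ON and CEpiLC (log2 -0.21 ± 0.45 SE, adjusted p = 0.719). Whether the change of Foxa2 differed from those of Gsc and Lhx1 was not tested. SOX2-OFF against CEpiLC missed the threshold (log2 1.08 ± 0.44 SE, adjusted p = 0.0579). It passed without CEpiLC replicate 2 (log2 1.65, adjusted p = 0.0123) and without SOX2-ON replicate 3, which enters only through the shared spread (adjusted p = 0.0371). SOX2-ON against SOX2-OFF was called only narrowly (log2 -1.28 ± 0.44 SE, adjusted p = 0.0433). The call was lost with DESeq2 (adjusted p = 0.0801) and with any of 8 libraries left out, namely each EpiLC library, each SOX2-OFF library and SOX2-ON replicates 1 and 2, with log2 values of -1.41 to -1.03 and adjusted p of up to 0.149.

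Hhex encodes a homeodomain repressor of anterior endoderm and was the member with the highest level in EpiLC (chromosome 19, 37434841 to 37440731). It was read at 5.23, 4.29 and 4.32 TPM in EpiLC, at 5.60, 5.76 and 6.93 TPM in CEpiLC, at 6.86, 6.35 and 8.89 TPM in SOX2-OFF and at 16.3, 17.6 and 14.3 TPM in SOX2-ON. Hhex was the one member that stood highest in SOX2-ON, with all 3 libraries above those of every other group, and CEpiLC overlapped with SOX2-OFF. SOX2-ON was 2.13-fold above SOX2-OFF (log2 1.09 ± 0.16 SE, adjusted p = 0.000272), 2.6-fold above CEpiLC (log2 1.38 ± 0.16 SE, adjusted p = 1.28e-05) and 3.4-fold above EpiLC (adjusted p = 1.39e-06). CHIR99021 in wild-type cells gave a log2 value of 0.38 ± 0.18 SE (adjusted p = 0.0957), and SOX2-OFF against CEpiLC gave 0.29 ± 0.17 SE (adjusted p = 0.18). Neither was called, whereas SOX2-OFF against EpiLC was called at 0.68 ± 0.18 SE (adjusted p = 0.00435).

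**Figure D2:**
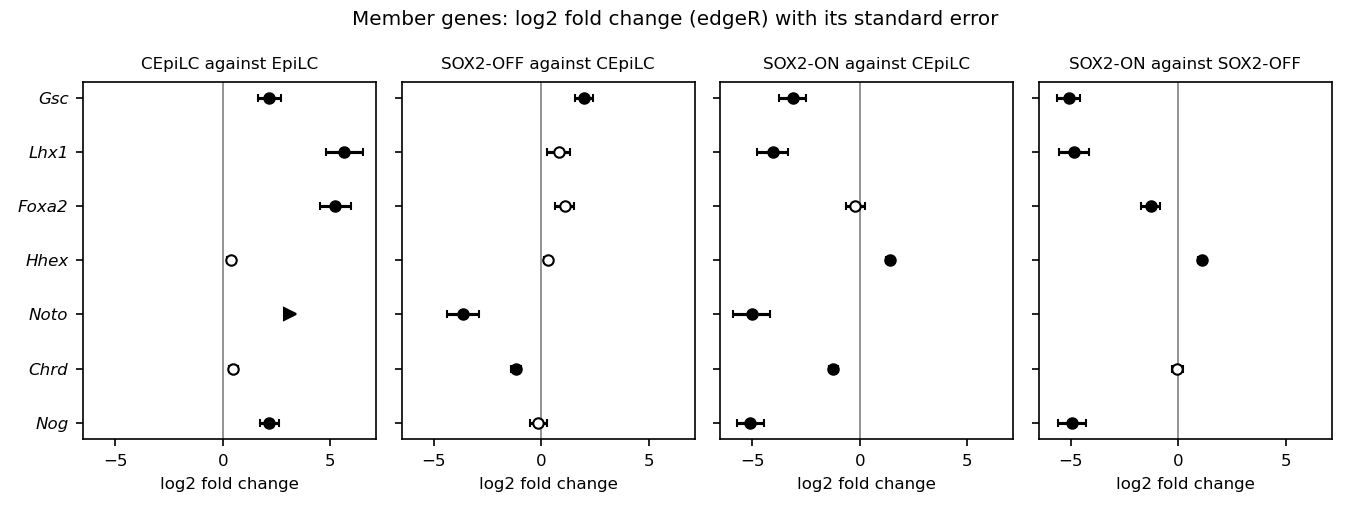
Log2 fold change (horizontal axes) of the member genes in 4 comparisons, the first-named group minus the second, with bars of 1 SE. Filled circles passed an adjusted p of 0.05 and open circles did not. The triangle is a lower bound (Noto, at least 8.68-fold), and comparisons with both groups at the floor are left out. Foxa2 is open between SOX2-ON and CEpiLC (-0.21) where Gsc (-3.13) and Lhx1 (-4.06) are filled, and Hhex alone is to the right in both panels of SOX2-ON (1.38 and 1.09).

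Of the secreted antagonists of BMP, Nog rose with CHIR99021 in wild-type cells and was lowest in SOX2-ON. Nog encodes noggin, which binds BMP ligands directly (chromosome 11, 89300638 to 89302559). It was read at 0.57, 0.89 and 0.48 TPM in EpiLC, at 1.39, 3.86 and 4.01 TPM in CEpiLC, at 2.64, 2.63 and 2.77 TPM in SOX2-OFF and at 0.17, 0.06 and 0 TPM in SOX2-ON. CEpiLC and SOX2-OFF overlapped, both lay above EpiLC, and SOX2-ON lay below every other library, with 3, 1 and 0 counts. The rise with CHIR99021 in wild-type cells was 4.49-fold (log2 2.17 ± 0.45 SE, adjusted p = 0.00172). SOX2-OFF against CEpiLC gave log2 -0.14 ± 0.38 SE (adjusted p = 0.792), a value whose sign turned (0.37) when the shift of chromosome 11 was taken out. In SOX2-ON the summed counts, scaled for library size, were 33.7 times below SOX2-OFF (95% counting interval 12.8 to 126, adjusted p = 8.4e-05), 33.6 times below CEpiLC (12.9 to 125, adjusted p = 1.77e-05) and 8.29 times below EpiLC (2.95 to 32.2, adjusted p = 0.00522). The adjusted p values are those of edgeR's fit and do not test these ratios. The ratios rest on 4 counts in SOX2-ON, 3 of them in replicate 1. Without that library the fitted log2 values moved from -4.96 to -6.15, from -5.09 to -6.29 and from -2.93 to -4.12. With the chromosome shift taken out, Nog in SOX2-ON was at log2 -4.58 against CEpiLC (adjusted p = 8.83e-05) and -2.43 against EpiLC (adjusted p = 0.0204). Nog and Chrd were the members called lower in SOX2-ON than in EpiLC.

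Chrd encodes chordin, the other classical organiser antagonist of BMP (chromosome 16, 20731425 to 20742384), and it did not share the course of Nog. It was read at 2.07, 2.29 and 2.15 TPM in EpiLC, at 3.15, 3.87 and 1.87 TPM in CEpiLC, at 1.17, 1.57 and 1.15 TPM in SOX2-OFF and at 1.37, 1.19 and 1.38 TPM in SOX2-ON. Both groups of the SOX2 TetON line lay below both wild-type groups in every library, and the groups within a line overlapped. Chrd was 2.27-fold lower in SOX2-OFF (log2 -1.19 ± 0.23 SE, adjusted p = 0.000966) and 2.35-fold lower in SOX2-ON (log2 -1.23 ± 0.23 SE, adjusted p = 0.000517) than in CEpiLC. SOX2-ON against SOX2-OFF was not called (log2 -0.05 ± 0.25 SE, adjusted p = 0.912). The rise with CHIR99021 in wild-type cells was not called (log2 0.49 ± 0.22 SE, adjusted p = 0.0919) except without CEpiLC replicate 3 (log2 0.69, adjusted p = 0.0114). Against EpiLC, where 62.1% of all genes were called in SOX2-OFF and 59.8% in SOX2-ON, Chrd was lower in both (adjusted p = 0.0213 and 0.0146). The first call was lost without EpiLC replicate 2, SOX2-OFF replicate 1 or SOX2-OFF replicate 3 (log2 -0.66, -0.61 and -0.64) and the second without SOX2-ON replicate 2 (log2 -0.66). Chromosome 16 showed a median shift of 0.02 log2 between the lines.

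The secreted ligand of the list, Shh (chromosome 5, 28456840 to 28467101), was at the floor in every library. It was read at 0 TPM in all EpiLC libraries, at 0.05, 0 and 0.21 TPM in CEpiLC, at 0.13, 0.04 and 0 TPM in SOX2-OFF and at 0.08, 0 and 0.09 TPM in SOX2-ON. No library held more than 3 counts, and no fold change is given. A count of 3, the floor chosen here, corresponded to 0.108 to 0.284 CPM (counts scaled to library size) in these libraries. Lower counts of Shh were recorded, but differences at or under that floor were not resolved at this depth.

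Against EpiLC, 5 members of 7 were called higher in SOX2-OFF (31.5% of all genes) and 1 lower (30.6%), and 2 were called higher in SOX2-ON (30.7%) and 2 lower (29.1%). Ranges of TPM did not overlap with EpiLC for 6 of the 7 in SOX2-OFF and 5 in SOX2-ON, against 68.7 and 65.7% of all genes. The median log2 fold change of the 6 members above the floor was 3.09 in SOX2-OFF and 0.42 in SOX2-ON (all genes 0.011 and 0.015). With Noto included the median was 1.59 in SOX2-ON. In SOX2-OFF it was then Noto's own fitted value, which is not given because EpiLC held 0 counts of Noto.

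Replicate 1 of CEpiLC stood apart in these genes. It was the lowest CEpiLC library for 6 of the 7 tested members, whereas it was lowest for 30.9% of all tested genes. The mean of replicates 2 and 3 was 7.51 times that of replicate 1 for Lhx1, 4.32 times for Foxa2, 3.16 times for Gsc, 2.83 times for Nog and 2.24 times for Noto. It was also the deepest library, with 27337740 counts. In the same library T, the streak factor brachyury, was at 474 TPM against 768 and 892 TPM, and Eomes, a T-box factor of the anterior streak, was at 1.44 TPM against 4.73 and 6.59 TPM. Tdgf1, the Nodal co-receptor, was at 2.97 TPM against 18.9 and 13.9 TPM. Of the 5 caudal markers, Cdx2 (314 TPM against 169 and 192 TPM), Hoxb9 (156 TPM against 43.0 and 98.7 TPM) and Nkx1-2 (432 TPM against 356 and 244 TPM) were highest there, Cdx1 (65.7 TPM, with 77.3 TPM as the highest) lay between the others and T was lowest. Their sum was 1442 TPM against 1376 and 1504 TPM. When this library was left out, all 21 fold changes of members that involve CEpiLC kept their direction and call, with log2 values of 6.19 for Lhx1, 5.71 for Foxa2 and 2.62 for Gsc against EpiLC. SOX2-OFF against CEpiLC was then 1.54 for Gsc (adjusted p = 0.00303), 0.61 for Foxa2 (adjusted p = 0.126) and 0.27 for Lhx1 (adjusted p = 0.476).

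Genes around the members are given from lists of their pathways. The Nodal pathway list (ligand, co-receptors, receptors, SMADs, convertases and antagonists among them) had 14 of 16 genes tested. With CHIR99021 in wild-type cells 7 were higher and 2 lower (median log2 0.22), and in SOX2-OFF against CEpiLC 6 were higher and 2 lower (median 0.09). Nodal, the ligand that induces the organiser, was read at 0.75, 1.17 and 0.29 TPM in EpiLC, at 7.98, 21.1 and 13.2 TPM in CEpiLC, at 65.8, 80.1 and 49.6 TPM in SOX2-OFF and at 17.5, 14.2 and 10.9 TPM in SOX2-ON. SOX2-OFF lay above all other libraries (log2 2.24 ± 0.30 SE against CEpiLC, adjusted p = 4.83e-05), while SOX2-ON and CEpiLC overlapped (log2 -0.01 ± 0.31 SE, adjusted p = 0.987). Lefty2, a secreted Nodal inhibitor, rose in CEpiLC against EpiLC by 5.27 ± 0.71 SE (adjusted p = 7.09e-05) and fell in SOX2-ON against CEpiLC by 2.01 on the log2 scale (adjusted p = 0.00507), whereas Pcsk6, a convertase of the Nodal precursor, rose there by 1.26 (adjusted p = 8.84e-06). In SOX2-ON against CEpiLC 2 genes of the list were higher and 4 lower, and in SOX2-ON against SOX2-OFF 3 were higher and 7 lower (medians 0.05 and -0.23).

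**Figure D3:**
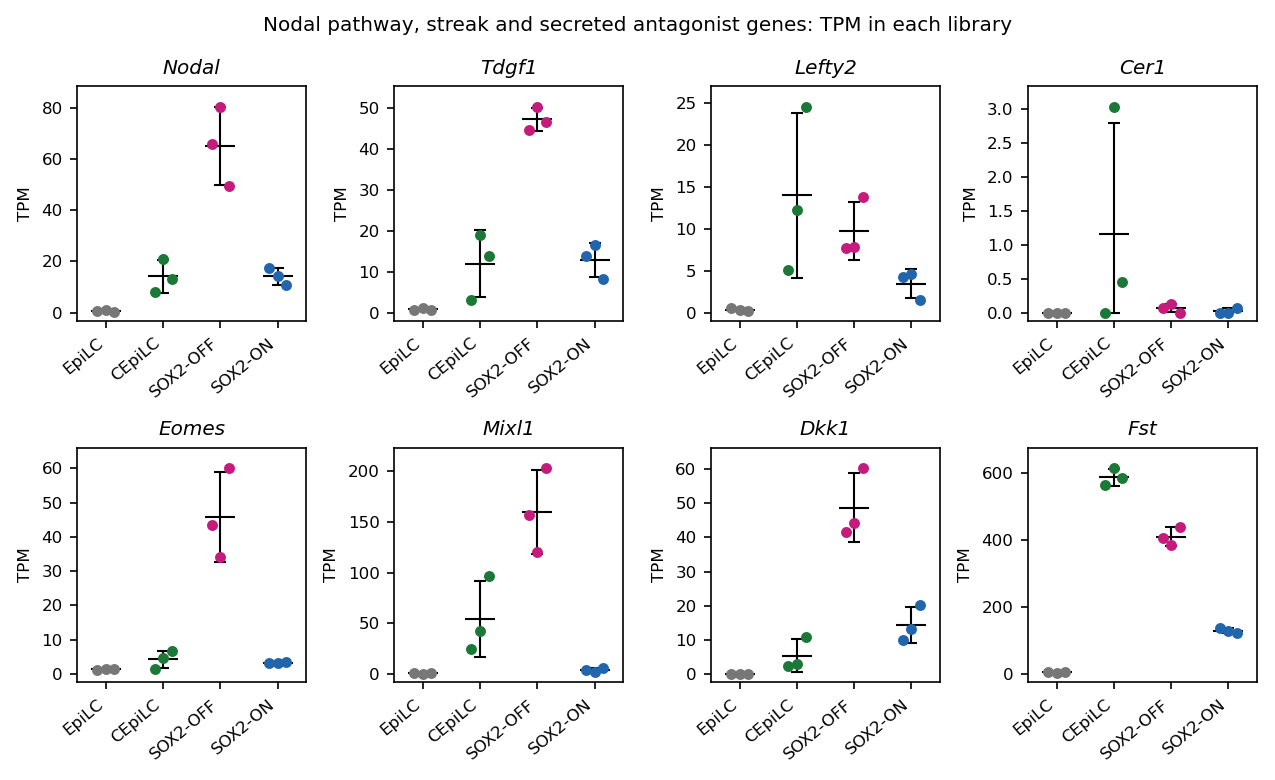
TPM (vertical axes, one scale per gene) of Nodal pathway, streak and secreted antagonist genes in the 12 libraries, by group. Points are libraries, horizontal bars are means of 3 and vertical bars are 1 SD, cut at 0. Nodal, Tdgf1, Eomes, Mixl1 and Dkk1 have their highest means in SOX2-OFF (65.1, 47.2, 45.9, 160 and 48.7 TPM), Fst is highest in CEpiLC (587 TPM), and Cer1 is above 1 TPM in 1 library, CEpiLC replicate 2 (3.03 TPM).

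In the list of anterior mesendoderm and definitive endoderm genes 15 of 17 were tested. Relative to CEpiLC 9 were higher and 1 lower in SOX2-OFF (median log2 1.61), and 8 were higher and 2 lower in SOX2-ON (median 1.24). The endoderm regulator Sox17 rose in SOX2-OFF (log2 5.27, adjusted p = 1.19e-06), and Gata6, another, rose in SOX2-ON (5.52, adjusted p = 1.4e-07). Sox17 and Gata6 were both called higher than in CEpiLC whether doxycycline was kept or withdrawn. SOX2-ON against SOX2-OFF gave 3 higher and 4 lower (median -0.54), led by the streak factors Mixl1 (log2 -5.39, adjusted p = 5.96e-06) and Eomes (-3.82, adjusted p = 9.64e-06). Eomes was read at 43.5, 34.1 and 60.1 TPM in SOX2-OFF and at 3.14, 3.36 and 3.55 TPM in SOX2-ON. Cer1, a secreted Nodal and BMP antagonist of the anterior endoderm, was not tested. It was listed at 0 in EpiLC and at 0, 3.03 and 0.45 TPM in CEpiLC, and did not exceed 0.13 TPM in the SOX2 TetON line. CHIR99021 in wild-type cells gave 7 higher and 3 lower in this list (median 1.56), with log2 values of 6.17 for Mixl1 and -6.08 for Otx2 (adjusted p = 7.38e-06 and 1.84e-09).

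Of 10 node and notochord genes other than the members 9 were in the table and 8 were tested. CHIR99021 in wild-type cells gave 5 higher and 1 lower (median log2 0.76), led by T (10.29, adjusted p = 1.36e-10) and Nodal (4.15, adjusted p = 1.22e-05). SOX2-OFF against CEpiLC gave 2 higher, Nodal and the forkhead gene Foxa1 (2.15 ± 0.32 SE, adjusted p = 0.000117), and 2 lower (median -0.01). T, which the notochord keeps after the streak, was at 804, 792 and 830 TPM in SOX2-OFF, where Noto was at the floor, and was not called there against CEpiLC (log2 0.20 ± 0.17 SE, adjusted p = 0.335). SOX2-ON against CEpiLC gave 1 higher and 3 lower (median -0.53), led by Sox9, a factor of notochord and cartilage (-2.79, adjusted p = 7.55e-06), and T (-2.27, adjusted p = 3.35e-07). Foxj1, the factor of motile node cilia, was read at 0.48 to 3.5 TPM in all 12 libraries and missed the threshold in each of the 6 comparisons between groups (adjusted p of 0.184 or more).

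The partners of LHX1 in its complex, Ldb1, Ssbp2, Ssbp3 and the head organiser factor Otx2, did not rise with Lhx1. In CEpiLC against EpiLC, where Lhx1 rose, 2 of the 4 were lower and the other two were not called. The lower ones were Otx2 as above and Ssbp3 (log2 -0.82 ± 0.06 SE, adjusted p = 4.45e-07). Ldb1, the scaffold of LIM homeodomain factors, had means of 88.9 and 87.9 TPM in the wild-type groups without and with CHIR99021, and of 67.8 and 67.0 TPM in SOX2-OFF and SOX2-ON. Otx2 means were 165, 2.62, 4.84 and 13.3 TPM in the same order. In SOX2-OFF against CEpiLC 1 of the 4 was higher, Otx2 (0.96 ± 0.30 SE, adjusted p = 0.0178), and 3 were lower.

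Among 11 other secreted BMP antagonists 8 were tested. Fst, which encodes follistatin, an inhibitor of activins and some BMPs, was at 564, 614 and 584 TPM in CEpiLC against 7.60, 4.43 and 4.94 TPM in EpiLC (log2 6.66 ± 0.16 SE, adjusted p = 1.7e-11). It was at 405, 384 and 440 TPM in SOX2-OFF and at 136, 130 and 121 TPM in SOX2-ON, with no overlap among the 4 groups. The highest library of Nog or Chrd was at 4.01 TPM. Grem1, which encodes gremlin, was higher than in CEpiLC in both SOX2-OFF and SOX2-ON (log2 2.24 and 2.82, adjusted p = 0.000683 and 6.25e-05), at 2.28 to 6.33 TPM. Chrdl1, a relative of Chrd, was lower in both (log2 -2.76 and -1.91, adjusted p = 0.00011 and 0.000631), as Chrd was. In all, CEpiLC against EpiLC gave 2 higher and 1 lower, SOX2-OFF against CEpiLC 2 and 2, SOX2-ON against CEpiLC 4 and 3 and SOX2-ON against SOX2-OFF 2 and 1 (medians -0.22, 0.16, 0.45 and 0.26).

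All 17 genes of the BMP list (ligands, receptors, SMADs and targets) were tested. CEpiLC against EpiLC gave 9 higher and 2 lower, SOX2-OFF against CEpiLC 7 and 4, SOX2-ON against CEpiLC 8 and 3 and SOX2-ON against SOX2-OFF 4 and 3 (medians 0.51, 0.39, 0.34 and 0.17). The BMP target Id3 had means of 85.7, 68.1, 24.3 and 98.5 TPM in EpiLC, CEpiLC, SOX2-OFF and SOX2-ON, and Id4 of 1.18, 0.82, 1.34 and 9.79 TPM. Both were higher in SOX2-ON than in SOX2-OFF (log2 1.97 ± 0.18 SE and 2.81 ± 0.28 SE, adjusted p = 6.36e-06 and 1.09e-05). Smad6 and Bambi, which are also induced by BMP, were instead lower in SOX2-ON (1.28 to 1.82 and 2.35 to 2.65 TPM) than in SOX2-OFF (2.44 to 3.05 and 3.5 to 3.81 TPM, log2 -0.83 ± 0.26 SE and -0.60 ± 0.14 SE, adjusted p = 0.0284 and 0.00754). Msx2, another BMP target, was higher than in CEpiLC in both SOX2-OFF and SOX2-ON (3.53 and 3.96, adjusted p = 1.33e-05 and 3.03e-06), so the targets did not share one order.

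For Hedgehog, whose ligand Shh was at the floor, all 15 other genes of the list were tested. CEpiLC against EpiLC gave 6 higher and 1 lower, SOX2-OFF against CEpiLC 2 and 6, SOX2-ON against CEpiLC 4 and 5 and SOX2-ON against SOX2-OFF 3 and 3 (medians 0.77, -0.28, -0.20 and -0.06). Ihh, the Hedgehog ligand of visceral endoderm and gut, was at 7, 10.3 and 9.63 TPM in SOX2-OFF and at 3.38, 3.47 and 8.62 TPM in SOX2-ON, against at most 0.26 TPM in wild-type libraries (log2 5.50 ± 0.48 SE and 4.62 ± 0.49 SE against CEpiLC). Gli1, a direct readout of Hedgehog signalling, rose with CHIR99021 in wild-type cells (log2 2.44 ± 0.26 SE, adjusted p = 9e-06) and was not called among the 3 groups given CHIR99021, with means of 4.36, 3.42 and 3.23 TPM. Ptch1, the receptor and also a target, had means of 10.9, 18.3, 13.6 and 31.3 TPM and was higher in SOX2-ON than in SOX2-OFF (log2 1.15 ± 0.12 SE, adjusted p = 2.06e-05), while Gas1, a co-receptor, was lower (-2.90 ± 0.29 SE, adjusted p = 9.64e-06).

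Markers of other cell types moved with the groups. Of 13 visceral endoderm genes 8 were detected in every EpiLC library, 7 in every CEpiLC library, 11 in every SOX2-OFF library and 10 in every SOX2-ON library. Of the 10 tested, 8 were higher and 2 lower in SOX2-OFF than in CEpiLC, and 8 were higher and 1 lower in SOX2-ON. Their TPM summed to 15.8 to 19.3 in EpiLC and 8.72 to 12.8 in CEpiLC, but to 248 to 292 in SOX2-OFF and 88.9 to 264 in SOX2-ON. Most of that was Dab2, Cubn and Amn, genes of endocytic uptake, with Dab2 means of 127 TPM and Cubn means of 83.7 TPM in SOX2-OFF, while the defining secretory genes Afp (at most 0.17 TPM) and Ttr (at most 2.96 TPM) were low in every library. Within SOX2-ON, Foxa2 (4.29, 5.76 and 11.2 TPM) and the list sum (88.9, 116 and 264 TPM) had the same order of libraries, whereas Hhex (16.3, 17.6 and 14.3 TPM) was lowest in the library where the sum was highest. The part of such cells in the levels of Foxa2, Gsc, Lhx1 and Hhex was not tested. Naive pluripotency genes, all 9 of them detected in every library, summed to 32.2 to 37.6 TPM in EpiLC, 26.9 to 57.6 TPM in CEpiLC, 85 to 141 TPM in SOX2-OFF and 335 to 430 TPM in SOX2-ON, the group in which Hhex was highest, and their part was not tested either. Markers of the fibroblast feeders on which the stem cells had been grown summed to 18.2 to 83 TPM, with the highest sum in CEpiLC. Of the 7, 1 was called higher and 0 lower in CEpiLC than in EpiLC. Most of the highest sum, that of CEpiLC replicate 1, was Thy1 (66.8 TPM), which was not called there. The 7 neural tube and floor plate markers summed to 122 to 157 TPM in EpiLC, 28.5 to 43.2 TPM in CEpiLC, 42.2 to 54.7 TPM in SOX2-OFF and 65.8 to 84.5 TPM in SOX2-ON. Of the 5 tested, 2 were higher and 2 lower in SOX2-OFF than in CEpiLC. In SOX2-ON 4 were higher than in CEpiLC and 4 were higher than in SOX2-OFF (median log2 2.71 and 2.67), and their part in the levels of the members was not tested. Among them Nkx2-2, which marks tissue beside the floor plate, was at most 0.21 TPM in every library.

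**Figure D4:**
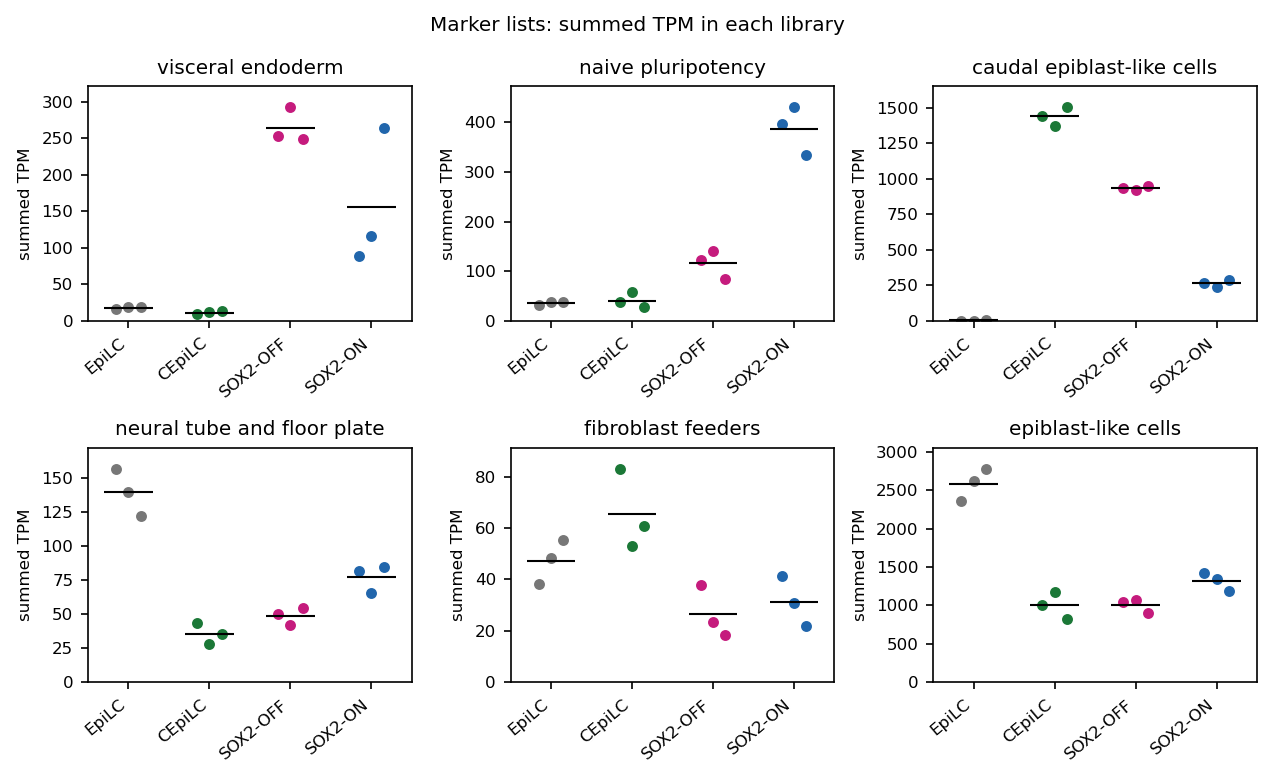
Summed TPM (vertical axes starting at 0, one scale per list) of 6 marker lists in the 12 libraries, by group. Points are libraries and lines are group means. The visceral endoderm sum is 248 to 292 TPM in SOX2-OFF and 88.9 to 264 TPM in SOX2-ON against at most 19.3 TPM in wild-type libraries, and the naive pluripotency sum is 335 to 430 TPM in SOX2-ON.

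The genes most like each member over the 12 libraries were found by Pearson's r of log2 CPM, among 10872 tested genes of at least 2 log2 CPM on average. Such values describe 4 group levels and share libraries and depth, and they carry no test. Gsc was most like Cldn4 (r = 0.96), a tight junction gene with means of 39.3, 74.4, 207 and 31.3 TPM in EpiLC, CEpiLC, SOX2-OFF and SOX2-ON, then Khnyn and Abcc1. Lhx1 was most like Lgals3 (r = 0.985; 1.72, 20.6, 32.2 and 3.43 TPM), Slc8a1 and S100a10. Foxa2 was most like Slc7a2 (r = 0.988; 0.263, 1.59, 2.81 and 2 TPM), Ccne2 and Echdc2, and Nog was most like Slit3 (r = 0.974), Ip6k2 and Npm3. Noto was most like Rab8b (r = 0.947), Srr and Lhpp, the last of which was at 41.9, 270, 58.5 and 38.7 TPM. Chrd was most like Kif1c (r = 0.935), Chaf1a and Snph, and Hhex was most like Rcn1 (r = 0.962), Cacul1 and Pdha1. Of the members Hhex alone reached the level asked of candidates.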

How the data were processed

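Polyadenylated RNA of 12 cultures was made into stranded libraries and read from one end over 76 bp. Per the labels and the study's methods, the authors trimmed reads with cutadapt 1.16, aligned them to mm10 with STAR 2.5.2a and quantified RefSeq genes with RSEM 1.3.0. The deposited table holds RSEM's expected counts and TPM for each library, and the replicates were not pooled. The authors tested with DESeq2 1.16.1.

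Before testing, expected counts were made whole by rounding; TPM served to show levels. Genes passing filterByExpr (14196 of 24736) were tested with edgeR 4.0.16 in R 4.3.3 (quasi-likelihood, TMM factors 0.97 to 1.02, one model of 12 libraries, Benjamini-Hochberg over all genes tested, 6 comparisons). The standard error was derived from the F statistic. The floor was 3 counts per library, and intervals, all of 95%, and floors cover counting error only, since the reads carry no molecular identifiers. Totals were 10408252 to 27337740 counts. Positions, promoter windows and chromosomes come from RefSeq in GRCm38.p6. Chromosome shifts are medians of genes of at least 4 log2 CPM.

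The members, lists, motifs and the rule for named genes (all members, the 2 largest calls of each list, a few pathway readouts and the 3 genes most like each member) were chosen with earlier results of these data known. Fitted folds of genes at 0 in a group are not printed, and some genes that the rule names are not reported here. Alternatives were other scalings and filters, DESeq2 1.42.0, limma-voom (limma 3.58.1), only the libraries compared, a replicate block, a stricter threshold, removal of chromosome shifts and leaving out each library. Replicates are numbered 1 to 3 in the labels. For EpiLC and CEpiLC, the deviations from the group mean of libraries with one number correlated at r = 0.12, 0.132 and 0.103. These lay just above the limit of 0.1 set for pairs. The model of 12 libraries nevertheless held no replicate term, and the numbers entered only the replicate block. With that block, CEpiLC against EpiLC gave log2 2.11 for Gsc (adjusted p = 0.00783) and 5.44 for Lhx1 (adjusted p = 0.000112). No call of a member changed in that comparison. Elsewhere (5 comparisons) at least 1 of the r values was under 0.1. No replicate pair agreed within sampling noise (chi-square per degree of freedom 7.17 to 40.5). The labels give no sequencing batch.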

Additional observations from a re-analysis of the deposited data

How the results depend on the processing

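Of 39 fold changes of members, 29 kept their direction and call under every alternative that gave a value, and of the 29 that were called 26 did so. No value came for Noto at a minimum of 1 CPM in 3 libraries, nor for Gsc, Lhx1 and Nog in SOX2-ON against EpiLC with only the 6 libraries compared. The exceptions among the called ones were Foxa2 in SOX2-ON against SOX2-OFF and Chrd in both groups of the SOX2 TetON line against EpiLC, as given above. In SOX2-OFF against CEpiLC, members called higher numbered 2 without the filter, 3 with limma-voom, where Foxa2 (adjusted p = 0.0106) and Lhx1 (adjusted p = 0.0297) joined Gsc, and 2 with the replicate block, where Foxa2 joined (log2 1.21, adjusted p = 0.00855). Those numbers are not shown to pair these samples, and the block changed no other call of a member. Leaving out single libraries gave 1 to 2 there. Members called lower numbered 1 with a minimum of 1 CPM in 3 libraries, which removed Noto. In the main fit of SOX2-OFF against CEpiLC 23.6% of all genes were called higher and 24.9% lower. The shares under these alternatives are not reported here. Against EpiLC, members called lower numbered 0 in SOX2-OFF and 1 in SOX2-ON at an adjusted p of 0.01. Of the 14196 genes, 7056 and 6691 were then called in either direction. Members called lower numbered 1 in SOX2-ON with only the 6 libraries compared. With single libraries left out they numbered 0 to 1 in SOX2-OFF and 1 to 2 in SOX2-ON. In the main fit 30.6 and 29.1% of all genes were called lower in SOX2-OFF and SOX2-ON. In SOX2-ON against EpiLC, Lhx1 was called higher without CEpiLC replicate 1 (adjusted p = 0.0486). At an adjusted p of 0.01 the genes called numbered 3968 in CEpiLC against EpiLC and 2437 in SOX2-ON against SOX2-OFF. Directions that turned were of values near 0 and not called. These were Nog in SOX2-OFF against CEpiLC (0.15 with limma-voom, 0.37 with chromosome shifts removed, -0.52 to 0.10 with single libraries left out), Foxa2 in SOX2-ON against CEpiLC (0.17 with limma-voom, -0.67 to 0.37 with single libraries left out) and Chrd in SOX2-ON against SOX2-OFF (-0.13 to 0.12 with single libraries left out). The cause was not tested. Depth limits the values of groups with libraries of 0 to 3 counts, which Noto, Shh, Nog, Gsc, Foxa2 and Lhx1 have.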
